A study of Drosophila melanogaster with 4 samples.

Results

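Broad HP2 domains are the widest stretches of HP2 enrichment in the chromosome arms of Drosophila melanogaster larvae at the third instar. They were taken from the combined list of enriched regions (clusters) that the authors deposited for the replicate set. The domains were chosen by their width in that list, which had to be 4 kb or more, and by a midpoint in 1 of 4 arm regions, which leave out chromosome ends, pericentric sequence, a 1 Mb stretch of 2L around cytological region 31 and the Hox complexes of 3R. The regions run from 1000001 to 20011544 on 2L (without 9900001 to 10900000), from 1000001 to 21543557 on 3L, from 3000001 to 26905053 on 3R (without 12450001 to 12850000) and from 1000001 to 19422827 on X, on FlyBase release 5. The regions are called euchromatic only from their place in the arms, since no histone mark was measured. Arm 2R was not analysed here. Of the 12660 combined clusters, 6522 lay in the arm regions and 480 of these were broad domains. Genes and sequence under the domains were not analysed here.

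HP2 is a large chromatin protein encoded by Su(var)2-HP2. It binds heterochromatin protein 1a (HP1a) and is best known from pericentric heterochromatin and chromosome 4. HP1a itself binds histone H3 methylated at lysine 9, and in pericentric heterochromatin it covers long continuous stretches. In the gene-rich arms HP1a binding is known to be more scattered, which makes the extent of its partners there a question of interest.

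The material was nuclei of wild-type larvae of the Oregon-R strain, assayed by chromatin immunoprecipitation with sequencing (ChIP-seq) with the HP2 antibody Ab2-90. There were 2 ChIP libraries, replicates 1 and 2, and each was called against its own input library (2 inputs). No group carries a mutation or treatment. The labels do not say whether the replicates are separate collections of larvae, so differences between them may be technical only. The replicate lists held 4092 and 7017 clusters in all, of which 1736 and 3085 lay in the arm regions. No read counts were given, so the depth is unknown. No test was run across the 2 libraries. The combined list was made from these same libraries, so every comparison of domains with replicate lists is a description. Intervals cover counting error only, and neighbouring domains are not independent.

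The width of the cluster chose the domains, so width is given only to describe them. The 480 domains covered 2624 kb, or 3.26% of the 80.5 Mb in the arm regions, and held 19.8% of the sequence under arm clusters. Their median width was 4.89 kb (quartiles 4.36 and 5.93 kb), and the median of the 6042 narrower arm clusters was 1.54 kb. Most domains were thus not far above the minimum. Only 40 were 8 kb or wider, 11 were 10 kb or wider, and the widest measured 16.1 kb. There was no break in width at the minimum. The 3 domains just above it measured 4001, 4003 and 4005 bp, with scores of 0.335, 0.323 and 0.395, and all 3 overlapped a cluster in replicate 2 only. The 3 clusters just below measured 3999, 3997 and 3995 bp, with scores of 0.568, 0.432 and 0.402, and 2 of them overlapped clusters in both replicates.

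Most broad domains shared some sequence with clusters of the single libraries. The combined list was made from these libraries, so the overlap is no independent support. Clusters of both replicates touched 398 of the 480 domains by 1 bp or more, which is 82.9% (exact 95% interval 79.2 to 86.2%). Over all 6522 arm clusters, domains included, the share was 19.6%. Replicate 2 touched 473 domains (98.5%, against 45.1% of all arm clusters) and replicate 1 touched 403 (84.0%, against 24.7%). A further 75 domains (15.6%, against 25.4%) were touched by replicate 2 only, 5 (1.04%, against 5.01%) by replicate 1 only, and 2 (0.417%, against 49.9%) by neither. A wider region has more room to be touched, so a higher share than the background follows in part from the choice of members by width. The lists also differ in minimum length, since the shortest cluster was 1001 bp in the combined list and 1301 bp in each replicate list. Of the 2858 arm clusters from 1 to 1.5 kb wide, 85.2% were touched by neither replicate, and these lower the background share.

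The share touched rose with width up to the domain class. Among clusters from 1 to 1.5 kb wide, replicate 1 touched 3.01% and replicate 2 touched 11.9%. At 3 to 4 kb, just under the minimum, the shares were 67.8% and 91.9%. At 4 to 6 kb they were 81.7% and 98.3%. At 8 kb or more, replicate 1 touched 35 of 40 domains (87.5%, interval 73.2 to 95.8%) and replicate 2 touched all 40 (interval from 91.2%). The intervals of the 3 domain classes overlap each other in each replicate, so the classes above 4 kb do not separate at these counts.

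**Figure D1:**
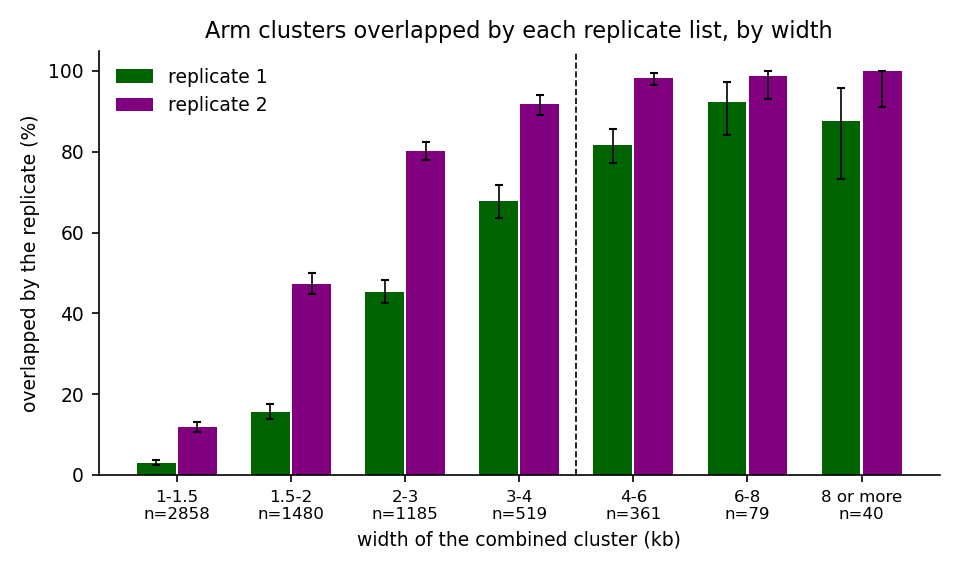
Share of combined arm clusters that share 1 bp or more with a cluster of replicate 1 (green) or replicate 2 (purple), by width of the combined cluster in kb. Bars are shares with exact 95% binomial intervals, n is the number of combined clusters in each class, and the dashed line marks the 4 kb minimum, right of which replicate 1 touched 81.7 to 92.4% and replicate 2 touched 98.3 to 100%.

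Touched did not mean filled. Replicate 1 clusters covered 45.6% of the domain sequence and replicate 2 clusters 75.8%, a mean of 60.7 ± 21.4% (SD, n = 2). Over all arm clusters the cover was 25.8% and 50.4%. The median domain was covered to 47.7% in replicate 1 (quartiles 30.2 and 64.8%) and to 80.8% in replicate 2 (63.6 and 92.4%). At least 50% of the width was covered in 222 domains (46.2%) in replicate 1, against 20.2% of all arm clusters, and in 410 (85.4%) in replicate 2, against 42.6%. Cover was higher in replicate 2 in 413 of the 480 domains and higher in replicate 1 in 65. The replicates therefore differed in how much of a domain they called, in the same direction in most domains. Of the domain sequence under replicate 1 clusters, 87.9% was also under replicate 2 clusters, and in the other direction the share was 52.9%. Both replicates covered 40.1% of the domain sequence and neither covered 18.7%.

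**Figure D2:**
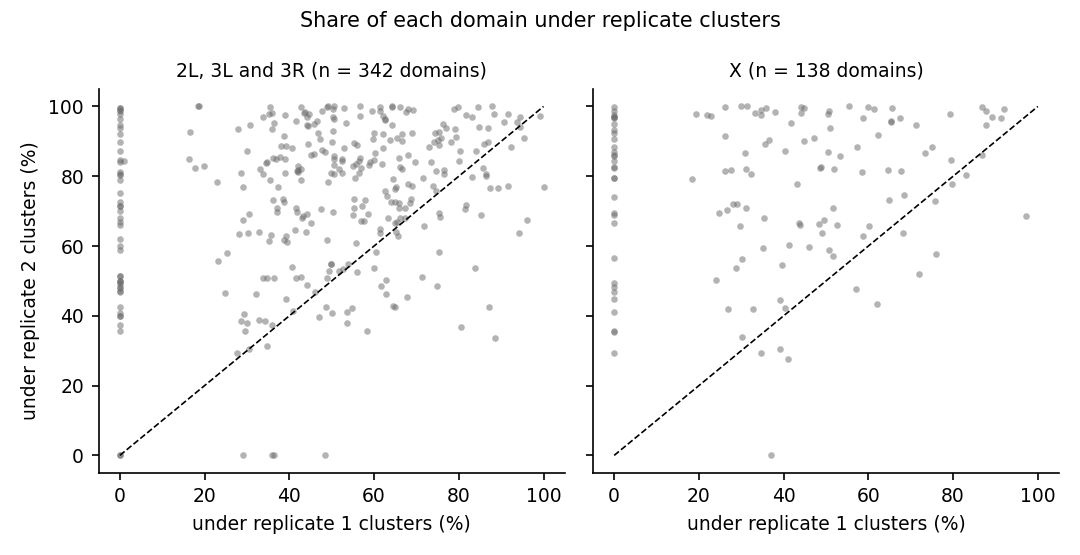
Percentage of each domain's width under replicate 1 clusters (x axis) and replicate 2 clusters (y axis), with the 342 domains of 2L, 3L and 3R on the left and the 138 of X on the right. Each point is 1 domain, the dashed line marks equal cover, and 413 of 480 domains lie above it; points at 0 on the x axis are domains that replicate 1 did not touch.

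In a single library most domains were shorter or broken calls. In replicate 1, 314 domains held 1 cluster and 89 held 2 or more, with 4 at most. In replicate 2, 359 held 1 and 114 held 2 or more, with 3 at most. A replicate cluster of 4 kb or more lay in or across 42 domains (8.75%) in replicate 1 and 187 (39.0%) in replicate 2. Such a wide call was present in both replicates at 31 domains and in neither at 282 (58.8%). The median widest call in a touched domain was 2.25 kb in replicate 1 and 3.59 kb in replicate 2. At most domains a call of 4 kb or more was thus found in the combined list only. In the other direction, the replicate 1 list held 42 clusters of 4 kb or more in the arm regions and all 42 overlapped a domain. Of the 192 in the replicate 2 list, 187 did. Of the arm clusters of all widths, 506 of 1736 in replicate 1 (29.1%) and 596 of 3085 in replicate 2 (19.3%) overlapped a domain. The combined list was made from these same libraries, so the overlap of wide calls with domains is no independent support. The mean of the counts of wide clusters, 42 and 192, was 117 ± 106 (SD, n = 2), so the replicates differed in this count by more than the mean itself.

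The cover inside the domains is given by position as a description. A call that takes up most of a domain reaches its middle wherever it lies, so higher cover there cannot by itself show a preference for the centre. Whether calls preferred the centre was not tested. With each domain cut into 3 equal parts, replicate 1 clusters covered 57.1% of the middle part and 39.2% and 40.5% of the outer parts. In replicate 2 the values were 86.9%, 70.3% and 70.2%. Cover was thus about even between the 2 sides. At the centre itself 57.1% of domains lay under a replicate 1 cluster and 86.9% under a replicate 2 cluster. The shares at 4 kb to the right of the centre were 9.17% and 20.8%, and at 15 kb they were 8.54% and 19.6%. Around narrower clusters the shares at 15 kb were 6.90% and 14.2%. Replicate 2 clusters ran past an edge of 192 domains (40%) and replicate 1 clusters past an edge of 42 (8.75%). Any overhang of 1 bp or more was counted. In replicate 2 it was 1 bp at 2L 2750544 to 2754716 and 4083 bp at X 6573744 to 6581484. The share over all arm clusters was not computed, so these counts do not show that calls in general extend beyond the domains.

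**Figure D3:**
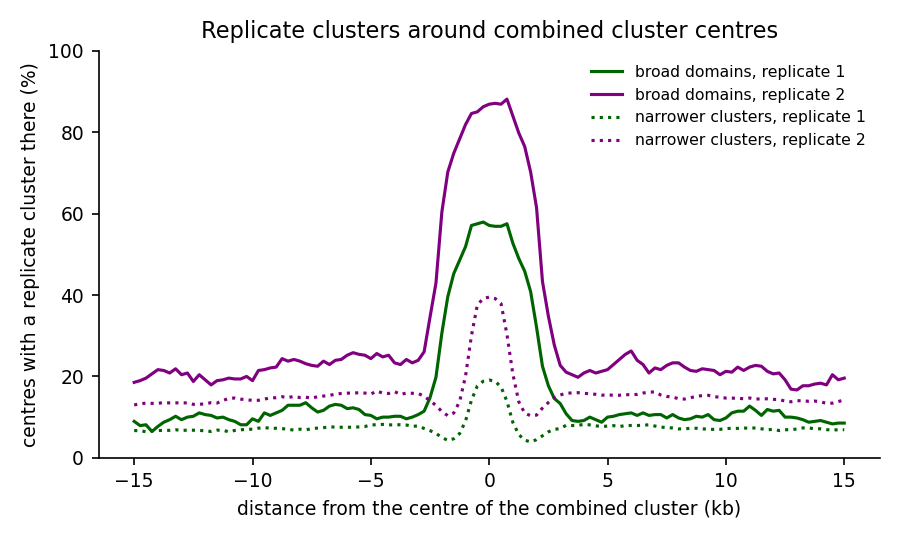
Percentage of combined clusters with a replicate cluster at a given distance (kb) from their centre, for 480 broad domains (solid) and 6042 narrower arm clusters (dotted), replicate 1 in green and replicate 2 in purple. For domains the curves peak near the centre, with 57.1% and 86.9% at the centre itself, and from 4 kb outwards they lie between 6.46 and 13.5% in replicate 1 and between 16.7 and 26.2% in replicate 2.

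The authors' scores, whose scale is not stated, were used only within a list. Domains had a median combined score of 0.543 (quartiles 0.431 and 0.751), and narrower arm clusters had 0.363. Within the domains, Spearman's rho between width and score was 0.18 (n = 480 domains, which share the same libraries), so the widest domains were not in general the highest-scoring. Score and cover were more closely related, with a rho of 0.58 for replicate 1 and 0.43 for replicate 2. Both come from the same libraries, so a positive relation may follow from that. The 77 domains that replicate 1 did not touch entered with no cover. The 398 domains touched by both replicates had a median score of 0.602, the 75 touched by replicate 2 only 0.421 and the 5 touched by replicate 1 only 0.349. The first set was also wider, with a median of 5.00 kb against 4.46 kb and 4.66 kb. A wider domain has more room to be touched by both, and the last set is very small. Within the replicate lists, the 506 replicate 1 clusters in domains had a median score of 0.569 and a median width of 2.12 kb, against 0.509 and 1.80 kb for the other arm clusters. In replicate 2 the 596 clusters in domains had 0.698 and 3.14 kb, against 0.531 and 1.84 kb. Domains were chosen by width in a list made from these same libraries. The contrast in width therefore follows in part from that choice, and the contrast in score may do so too.

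The X region had more broad domains per Mb than the 3 autosomal regions. It held 138 domains, or 7.49 per Mb (95% Poisson interval 6.29 to 8.85). The values were 5.39 per Mb on 2L (97 domains, 4.37 to 6.57), 5.45 on 3L (112 domains, 4.49 to 6.56) and 5.66 on 3R (133 domains, 4.74 to 6.71). The 3 autosomal regions cannot be told apart at these counts, and the X interval overlaps each of theirs. Domains covered 4.25% of the X region and 2.89 to 3.08% of the autosomal ones. The autosomal regions pooled had 5.51 domains per Mb (4.94 to 6.13), an interval that does not reach that of X, and X had 1.36 times their density. Without the fullest 1 Mb window of X, an alternative chosen after the data were seen, X had 6.66 per Mb (116 domains, 5.50 to 7.99), and that interval overlaps the pooled autosomal one. The autosomal regions kept their fullest windows, so this alternative could only lower X against them. The overlap therefore does not show that the higher density on X rests on 1 window.

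Clusters of all widths were also denser on X. In the combined list they were 1.29 times as dense on X, at 97.8 per Mb against 76.1 per Mb. Broad domains made up 7.66% of the arm clusters on X (exact 95% interval 6.47 to 8.98%), 7.93% on 2L, 6.94% on 3L and 7.06% on 3R. These shares lie within each other's intervals. Widths also overlapped, with medians of 5.07 kb on X and 4.72 to 4.93 kb on the autosomal arms, and so did scores, with a median of 0.563 on X (quartiles 0.475 and 0.815) and 0.498 to 0.557 on the others.

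The replicates disagreed on the X. In replicate 2, clusters of 4 kb or more numbered 68 on X, or 3.69 per Mb, and 1.89 to 2.09 per Mb on the autosomal arms. In replicate 1 they numbered 6 on X, or 0.326 per Mb (Poisson interval 0.120 to 0.709), against 0.487 to 0.777 per Mb. X was therefore the densest arm in replicate 2, where its interval (2.87 to 4.68) lies above those of the other arms, and had the lowest value in replicate 1, where the intervals of the 4 arms overlap. For clusters of any width the ratio of X to autosomal density was 1.46 in replicate 2 and 1.02 in replicate 1. Domains on X were touched by replicate 1 in 77.5% of cases (interval 69.7 to 84.2%) and domains on the autosomal arms in 86.5% (82.5 to 90.0%). Among narrower clusters replicate 1 touched 15.4% on X and 21.0 to 22.5% on the autosomal arms, so the lower share on X was not particular to domains. Replicate 1 covered 38.9% of the domain sequence on X and 48.4% on the autosomal arms, and replicate 2 covered 78.2% and 74.8%. Counting only domains touched by both replicates, X had 5.75 per Mb and the autosomal arms 4.71. The part of replicate 2 in the higher density on X was not tested.

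**Figure D4:**
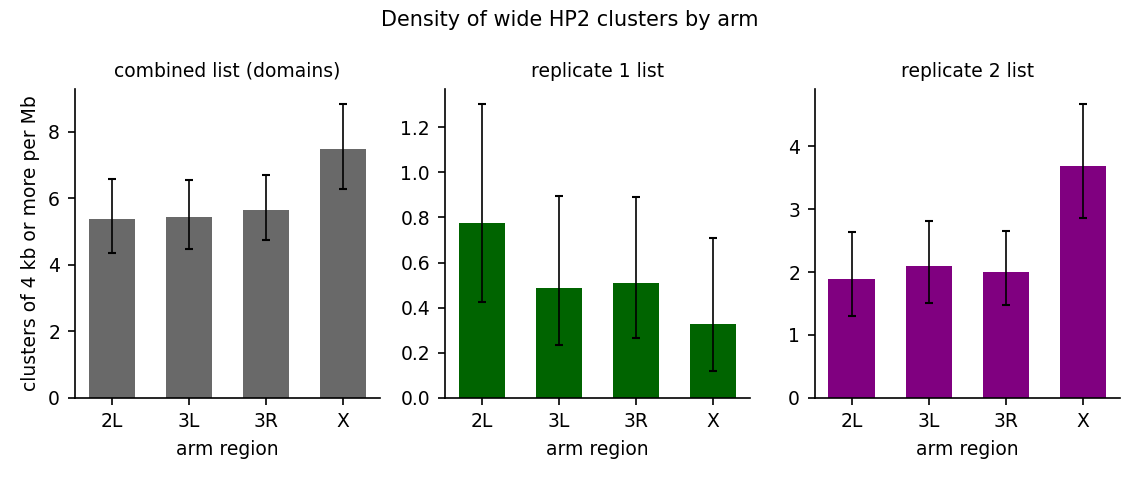
Clusters of 4 kb or more per Mb in the 4 arm regions, in the combined list (grey, the broad domains), the replicate 1 list (green) and the replicate 2 list (purple). Bars are densities with 95% Poisson intervals for counting error and each panel has its own scale from 0; X is highest in the combined list (7.49) and replicate 2 (3.69) and lowest in replicate 1 (0.326).

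The share of domains seen by both libraries was highest on 3L and lowest on X. On 3L, 101 of 112 domains (90.2%, interval from 83.1%) were touched by both replicates, on 3R 111 of 133 (83.5%), on 2L 80 of 97 (82.5%) and on X 106 of 138 (76.8%, 68.9 to 83.6%). The intervals of 3L and X overlap only slightly, and those of 2L and 3R overlap both, so the autosomal arms do not separate from each other. Domains seen by replicate 2 only made up 22.5% on X (interval 15.8 to 30.3%) and 8.04% on 3L (3.74 to 14.7%). Among narrower clusters the share touched by both was also highest on 3L (15.9%) and lowest on X (12.3%). Those touched by replicate 2 only made up 33.6% on X and 24.5% on 3L, so these differences between X and 3L were not particular to domains.

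Domains were spread along all 4 regions, with thinner stretches on each. In 77 windows of 1 Mb the median was 6 domains, and 3 windows had none. These were 2L 15000001 to 16000000, 2L 17000001 to 18000000 and X 3000001 to 4000000, which held 39, 20 and 66 narrower clusters. Each region was also cut into 5 equal parts. On 2L the part nearest the telomere had 7.63 domains per Mb (Poisson interval 5.11 to 11.0), and part 4, counted from the telomere, had 2.63 (1.26 to 4.84). Combined clusters of all widths numbered 71.3 and 48.9 per Mb in these parts. They were densest in part 2, at 100.5 per Mb, which had 7.36 domains per Mb. Broad domains made up 10.7% of the clusters in the part nearest the telomere and 5.38 to 8% in the other parts of 2L. On 3L the 5 parts lay between 3.65 (part 4) and 6.57 domains per Mb, and on X between 4.89 (part 4) and 8.96. On 3R they lay between 5.02 and 6.64. Within each of 3L, X and 3R the intervals of the 5 parts overlap.

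The fullest window was X 1000001 to 2000000, at the telomere side of the X region, with 22 domains. They covered 12.2% of the window, 19 were touched by both replicates, and each had another domain within 50 kb. Their median cover was 37.7% in replicate 1 and 84.5% in replicate 2. The window held 150 combined clusters, where the median X window held 100.5. Next came X 6000001 to 7000000 with 16 domains, and no window on the other arms had more than 11.

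Neighbouring domains were separated by a median gap of 80.8 kb (interval of the median 61.2 to 99.2 kb, 474 gaps), and gaps ranged from 13 bp to 1.93 Mb. The quartiles were 15.3 and 229 kb. The median gap was 55.0 kb on X (28.4 to 84.7 kb), 83.3 kb on 2L (37.0 to 124 kb), 93.3 kb on 3L (69.3 to 162 kb) and 106 kb on 3R (51.3 to 163 kb). X had the shortest median, and its interval overlaps those of the other arms. Between neighbouring arm clusters of all widths the median gap was 3.06 kb on X and 3.26 to 3.39 kb on the autosomal arms. The shortest median on X was thus not particular to domains. Another domain lay within 50 kb of 316 domains, or 65.8% (exact 95% interval 61.4 to 70.1%). The share was 72.5% on X, 68.0% on 2L, 61.6% on 3L and 60.9% on 3R, with intervals that overlap. Joined at 50 kb, the domains formed 115 groups of 2 or more and 164 stood alone. Whether domains lay closer together than their density alone would give was not tested.

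The shortest gaps bear on what counts as a domain. In 24 cases the gap was 1 kb or less, and 65 gaps were 5 kb or less. Had the authors' regions been joined across gaps of 1 kb, the arm regions would have held 986 domains of 4 kb or more in place of 480, since many narrower clusters also lie close to another cluster. The number of combined clusters with a midpoint within 50 kb had a median of 12 around a domain and 10 around a narrower cluster, and the spreads overlap widely (means 11.9 ± 4.46 and 10.7 ± 5.07, SD over clusters).

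**Figure D5:**
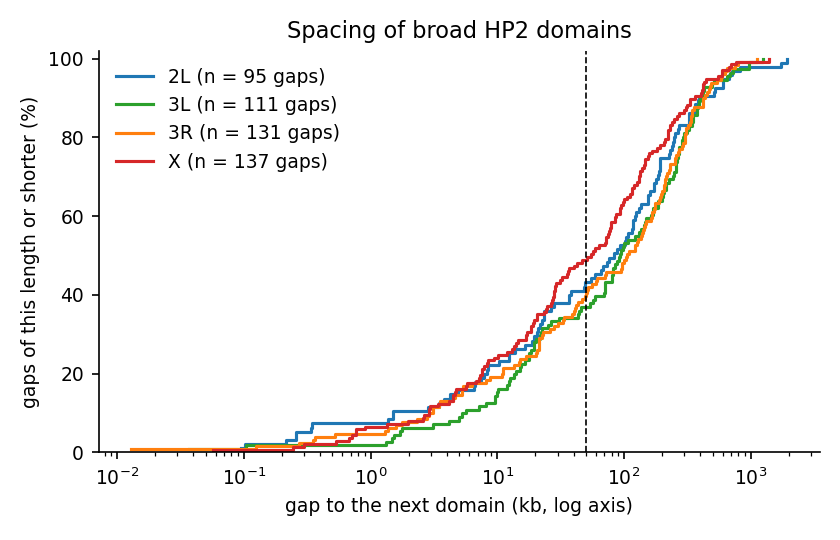
Cumulative percentage of gaps between neighbouring broad domains by gap length (kb, log axis), for 2L (95 gaps), 3L (111), 3R (131) and X (137). The dashed line marks 50 kb; the X curve lies left of the others over the middle of the range, with a median of 55.0 kb against 83.3 to 106 kb.

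The longest empty stretches separated domains by 1.12 to 1.93 Mb. On 2L no domain lay between 14356523 and 16286621, where 63 narrower clusters gave 32.6 clusters per Mb. That is below the 67.9 per Mb of the whole 2L region. On X the stretch from 2611499 to 3996981 held 84 narrower clusters (60.6 per Mb, against 97.8), on 3L the one from 4293549 to 5553473 held 46 (36.5 per Mb, against 78.5) and on 3R the one from 21835183 to 22950951 held 65 (58.3 per Mb, against 80.2). The stretches were chosen for holding no domain, and the values for the whole regions count the domains too. Lower values in the stretches therefore follow in part from that choice, and are given only as a description.

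The 10 widest domains spanned 10.3 to 16.1 kb, 4 of them on 2L, 3 on X, 2 on 3L and 1 on 3R. The widest, at 2L 11992368 to 12008490, had a score of 0.438, which is below the median of all domains. Replicate 1 marked it with 4 short clusters that covered 38.9% and were at most 1.70 kb wide, whereas replicate 2 covered 85.0% with 2 clusters, 1 of them 11.5 kb wide. The second, at 2L 2139620 to 2153366 (13.7 kb), was covered to similar extents in the replicates, at 61.5% by 4 clusters and 63.8% by 3. On X the domain at 18539880 to 18553404 (13.5 kb, score 0.917) was covered to 53.3% and 85.8%, and the domain at 11463344 to 11475822 (12.5 kb, score 0.665) to 65.3% and 95.8%. The last of these had the highest replicate 2 cover among the 10.

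Another 3 of the 10 widest domains were found in replicate 2 alone. They lay at 3R 20061710 to 20074018 (12.3 kb, covered to 66.8%), X 6445954 to 6457892 (11.9 kb, 92.5%) and 2L 5316852 to 5328680 (11.8 kb, 68.0%). The X domain was 1 replicate 2 cluster of 11.1 kb, and no replicate 1 cluster touched it. The other 3 of the 10 were in both lists. On 3L the domain at 2256568 to 2267572 (11.0 kb) was covered to 65.7% and 62.9%, with no call over 3.24 kb in either replicate, and the domain at 5756792 to 5767282 (10.5 kb) to 55.0% and 83.0%. The domain at 2L 7419648 to 7429930 (10.3 kb) was covered to 49.2% by 1 replicate 1 cluster of 5.06 kb and to 78.3% by 2 replicate 2 clusters. Of the 10 widest, 6 held 2 or more replicate 1 clusters and 9 held 2 or more replicate 2 clusters.

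On 3R the second widest domain, at 7040902 to 7050772 (9.87 kb, score 0.925), was an exception to the lower cover in replicate 1, with 81.7% against 71.9% in replicate 2. The 2 domains in neither list were at 3R 20468502 to 20474636 (6.13 kb, score 0.352) and 2L 4383150 to 4387640 (4.49 kb, score 0.287). Both scores lie below the lower quartile of the domains.

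The group with the most domains was on 3R, with 7 domains between 11031174 and 11173042. They were 4.14 to 9.19 kb wide and took up 28.0% of the 142 kb span. Replicate 1 covered 49.6% of their sequence and replicate 2 77.0%, and 5 of the 7 were touched by both. On 2L the largest group held 6 domains between 1074762 and 1187266, covered to 53.7% and 74.3%. On 3L 5 domains lay between 5743210 and 5806838, covered to 56.7% and 89.1%. The 3L group was the most compact of these, with 47.2% of its 63.6 kb under domains, and 2 of its domains were 37 bp apart, at 5756792 to 5767282 and 5767320 to 5774168.

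On X 6 groups tied at 5 domains, and the one with the highest-scoring member lay between 15749930 and 15840368. Its domains scored from 0.740 to 1.90 and all 5 were touched by both replicates, with 51.6% and 87.2% of their sequence covered. The domain at 15824438 to 15830522 (6.08 kb) had the highest combined score of all 480, at 1.90. Its highest-scoring replicate clusters had 1.89 in the replicate 1 list and 2.72 in the replicate 2 list, and they covered 48.4% and 66.2% of it. The 9.21 kb domain at 15801108 to 15810322 in the same group was covered to 35.5% by 1 replicate 1 cluster and to 89.3% by 1 replicate 2 cluster.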

How the data were processed

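HP2 was assayed in 2 ChIP libraries, each with its own input, per the labels. The authors aligned reads with Bowtie 0.12.7, per the submitters' processing notes, and deposited 3 lists of enriched regions (1 per ChIP replicate and 1 combined) on FlyBase release 5, per the file headers. For each region the authors deposited its limits and a score. What the score measures, which program called the regions at which threshold, and how the combined list arose were not given in the sources used here.

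Domains were chosen by width and midpoint in the combined list. A replicate cluster touched a domain if it shared at least 1 bp with it, and cover is the percentage of the width under replicate clusters. Gaps run from the end of a domain to the start of the next on the same arm, leaving out gaps across excluded windows. Shares have exact Clopper-Pearson intervals, densities exact Poisson intervals and median gaps order-statistic intervals, all at 95%. They cover counting error only. No test was run. The counting was checked on simulated data (Python 3.11.15, NumPy 2.4.6, pandas 2.3.3, SciPy 1.17.1). The gene table supplied is on release 6 and was not used with these coordinates.

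Named domains are the 10 widest, the 2 widest on each arm, the 2 widest in neither replicate list, the largest group (gaps of 50 kb or less) on each arm, and the 3 clusters on each side of the width minimum. The members, classes and rules were chosen with earlier results of these data known. The empty and fullest windows were chosen after their values were seen. Alternatives were other width minima, merging within 1 kb, the higher-scoring 50% of lists, stricter overlap, other distances, and leaving out each replicate.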

Additional observations from a re-analysis of the deposited data

How the results depend on the processing

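No paired analysis was possible because no result comes from a test and the inputs have no list of their own. Of 69 alternatives, 20 stayed within 1.5 times of a count or within the interval or replicate spread of a share, and 49 did not. For cover the limit was the SD of the replicates (21.4 points), and every alternative for cover stayed within it. With 2 replicates, leaving 1 out could not pass that limit, so those alternatives say nothing about stability. With width minima of 3, 6 and 8 kb the domains numbered 999, 119 and 40, the median gap was 24.6, 270.2 and 1235 kb, the share with a neighbour within 50 kb was 83.2%, 29.4% and 10%, and the share touched by both replicates was 73.1%, 90.8% and 87.5%. The densities per Mb were 10.2, 1.17 and 0.500 on 2L, 11.5, 1.02 and 0.292 on 3L, 12.1, 1.40 and 0.468 on 3R, and 15.9, 2.39 and 0.760 on X. After merging within 1 kb there were 986 domains, with a median gap of 23.4 kb, 83.4% with a neighbour, 70.0% touched by both, and 10.8, 12.2, 11.5 and 14.8 domains per Mb on 2L, 3L, 3R and X. In the higher-scoring 50% of the combined list the median gap was 105.1 kb and 87.7% were touched by both. X was the densest arm under each of these settings. Without its fullest 1 Mb window, an alternative chosen after seeing the data, X had 6.66 domains per Mb. Requiring 50% cover in each replicate lowered the share in both to 42.9%, and using the higher-scoring 50% of the replicate lists lowered it to 43.5%. The share with a neighbour was 47.7% within 20 kb and 79.4% within 100 kb. With 1 replicate left out, the share touched was 84.0 to 98.5%, the cover 45.6 to 75.8% and the clusters of 4 kb or more in the remaining list 42 to 192, or 0.777 to 1.89 per Mb on 2L, 0.487 to 2.09 on 3L, 0.511 to 2.00 on 3R and 0.326 to 3.69 on X. Without replicate 2, X had the lowest density of the 4 arms. The depth of the libraries is unknown, so no share could be weighted by it.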
